A study of Mus musculus with 6 samples.

Results

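Monocyte and macrophage marker genes, 10 in all, were followed in sorted mouse bone marrow stem and progenitor cells: the chemokine receptors Ccr2 and Cx3cr1, the adhesion molecule Vcam1, the surface receptors Cd163 and Adgre1, the lysosomal proteins Cd68 and Ctss, and the complement chains C1qa, C1qb and C1qc. They were chosen by name as a set of markers, with no measured value in the rule but with earlier results of these data known. Each symbol matched 1 of the 55487 Ensembl genes in the count files. All 10 also passed the filter on low counts, which left 15691 genes for testing. RNA came from bone marrow of 3 wild-type (WT) mice and 3 Brm-/- mice (BrmKO), all given as strain background C56Bl/6, with no other allele, treatment or age in the sources used here. Brm is an older name for Smarca2, whose product BRM is a motor subunit of SWI/SNF, complexes that move nucleosomes. Each library held LSK cells, sorted for c-KIT and SCA1 and against lineage markers, the fraction that contains blood stem cells and multipotent progenitors. The sources used here do not give which part of Brm was removed or whether its loss was limited to blood cells.

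Monocytes arise in the marrow from progenitors and leave it for the blood, and CCR2, which binds the chemokine CCL2, is known for that exit. Macrophages that live in the marrow take up dying cells and support maturing red cells, and they carry F4/80 (Adgre1), VCAM1 and CD163. Some of these genes are also active elsewhere: Vcam1 is a well-known product of marrow stromal and endothelial cells, and Cd68 and Ctss are transcribed in many blood cells. The LSK gate excludes cells with mature lineage markers, so RNA of these genes in an LSK library can come from progenitors that already transcribe them or from other cells carried through the sort. In bulk RNA, fewer cells of a type and less RNA per cell cannot be told apart.

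Reads in genes numbered 28.01 to 36.46 M per library, so that 3 reads, the limit a count of 0 allows, correspond to 0.0823 to 0.107 CPM (reads per 1000000 in genes). Smarca2 had 4270 to 6932 reads per WT library and 761 to 958 per BrmKO library, in the direction the labels give. Kit, the gene of the sorted receptor, stood at 849 to 1030 CPM and Ly6a, the gene of SCA1, at 18.7 to 35.7 CPM. Both libraries numbered 3 had more reads outside genes, 8.41% and 9.29%, than the other libraries, 5.79% to 6.61%. Nothing in the labels ties same-numbered mice together. The design text gives 3 mice per genotype, so the spread below is between libraries of different animals. Differences of animal, sort and library preparation cannot be told apart in it.

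The 10 genes were not present at a common level. Per kilobase of exon, Ctss was highest, at 25.7 ± 2.28 CPM per kb (SD, n = 6 libraries), followed by Cd68 at 19.9 ± 1.88 and Cd163 at 7.19 ± 0.755. These 3 levels did not overlap between neighbours in any library. Ccr2 came next at 3.68 ± 0.985 CPM per kb and Cx3cr1 at 2.89 ± 1.04, and from Ccr2 down each gene overlapped the next. C1qb stood at 1.59 ± 0.550 CPM per kb, Vcam1 at 1.29 ± 1.54, Adgre1 at 0.791 ± 0.475, C1qc at 0.627 ± 0.332 and C1qa at 0.560 ± 0.167. The lengths are of all annotated exons of a gene joined, so a gene read from a short transcript has a level per kb that is too low.

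**Figure D1:**
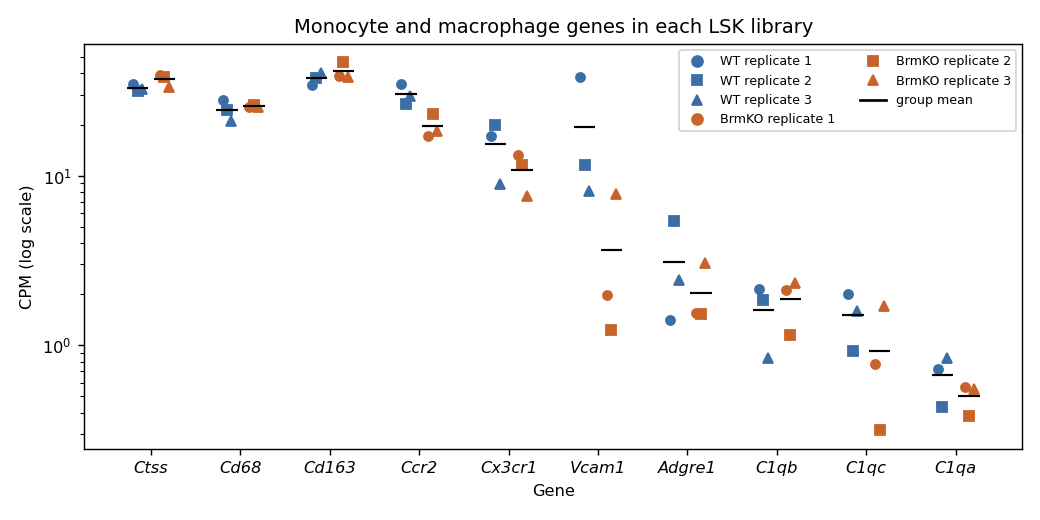
Level of each gene in CPM (log scale) by library, with WT in blue, BrmKO in orange, a symbol for each replicate number and a black bar for the group mean. Ctss, Cd68 and Cd163 lie between 21 and 46.5 CPM in all 6 libraries, whereas Vcam1 runs from 1.22 to 38.1 CPM.

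Levels also differed in how steady they were. The pooled SD within groups, on log2(CPM + 0.5), was 0.10 for Ctss, 0.14 for Cd163 and 0.15 for Cd68, against a median of 0.19 over all tested genes. It was 0.20 for Ccr2 and 0.50 for Cx3cr1. Vcam1 had 1.16, and only 0.30% of the tested genes had a larger value. Adgre1 had 0.67 and C1qc 0.58, exceeded by 3.19% and 5.58% of the tested genes, but both have few reads, where counting error adds to the spread. C1qa, with the fewest reads of the 10 genes (111), had 0.22, but at a mean of 0.583 CPM the added 0.5 shrinks this value. As CPM, its highest library was 2.2 times its lowest, against 2.01 for Ccr2.

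Between genotypes, none of the 10 genes passed the test over all genes (edgeR quasi-likelihood test, Benjamini-Hochberg adjusted p under 0.05), a threshold passed by 0.14% of tested genes. With limma-voom 0 passed and with DESeq2 1 did, Ccr2. Ccr2 and Vcam1 had an unadjusted p under 0.05, as did 5.85% of tested genes in either direction and 2.71% in this direction, BrmKO lower. The same 2 genes had every BrmKO library below every WT library, a separation in that direction found in 5.37% of tested genes. Of the 10 log2 fold changes, 6 lay below 0, with a median of -0.45, against 51.2% below 0 and a median of -0.01 over all genes tested. That median was -0.10 without WT replicate 2.

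**Figure D2:**
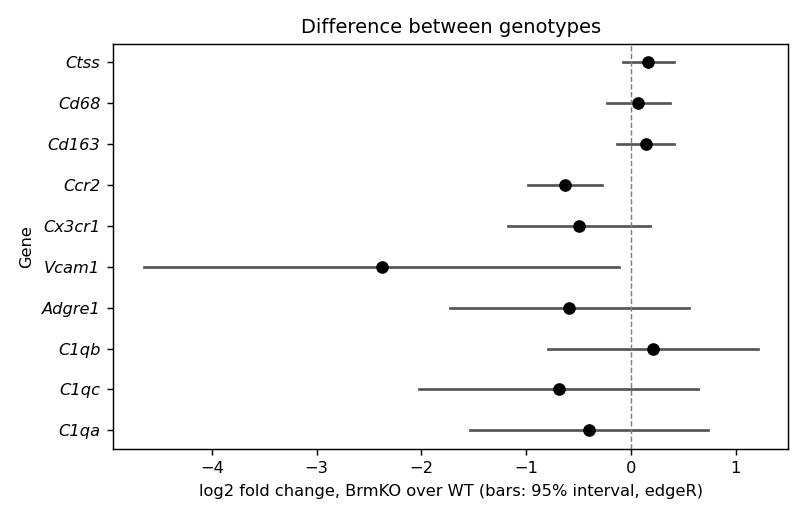
Log2 fold change of BrmKO over WT for each gene (points) with its 95% interval from edgeR (bars). The intervals of Ctss, Cd68 and Cd163 are narrow and span 0, that of Ccr2 runs from -0.98 to -0.28, and that of Vcam1 from -4.65 to -0.11.

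Ctss, Cd68 and Cd163 had the steadiest levels, and the bases before their start sites are shown for that reason. Cathepsin S (Ctss) is a lysosomal protease that trims the invariant chain from MHC class II. CD68 is a heavily glycosylated protein of late endosomes and lysosomes. CD163 is a scavenger receptor for haemoglobin bound to haptoglobin. The sequences are the 250 bases before the RefSeq start (GRCm38.p6, 5′ to 3′ on the strand of the gene), and capitals mark matches to 3 motifs searched on both strands. These were GAGGAA, a form of the site of ETS factors such as PU.1, TGAGTCA, the AP-1 site, and a repeat of GAAA with 2 bases between, a form of the interferon-stimulated response element. In the same window they occur in 23.3%, 4.46% and 2.98% of the 32851 promoters in the RefSeq table.
Ctss, plus strand, chr3:95526536-95526785: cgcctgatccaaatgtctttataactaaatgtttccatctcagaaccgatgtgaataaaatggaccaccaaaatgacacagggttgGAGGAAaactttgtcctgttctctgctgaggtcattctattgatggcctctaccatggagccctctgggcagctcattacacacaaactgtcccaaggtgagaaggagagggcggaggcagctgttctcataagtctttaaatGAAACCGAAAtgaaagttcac
Cd68, minus strand, chr11:69666171-69666420: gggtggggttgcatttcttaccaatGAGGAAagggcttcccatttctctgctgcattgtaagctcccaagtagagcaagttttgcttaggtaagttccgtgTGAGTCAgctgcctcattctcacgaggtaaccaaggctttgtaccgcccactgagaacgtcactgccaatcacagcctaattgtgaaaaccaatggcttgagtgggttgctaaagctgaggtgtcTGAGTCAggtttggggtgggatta
Cd163, plus strand, chr6:124304401-124304650: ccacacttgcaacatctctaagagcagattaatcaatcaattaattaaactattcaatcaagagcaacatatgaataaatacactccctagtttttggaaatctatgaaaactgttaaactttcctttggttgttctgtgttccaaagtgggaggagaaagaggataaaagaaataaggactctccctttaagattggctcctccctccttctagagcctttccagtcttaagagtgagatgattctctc
C1qb, minus strand, chr4:136886201-136886450, a member with few reads: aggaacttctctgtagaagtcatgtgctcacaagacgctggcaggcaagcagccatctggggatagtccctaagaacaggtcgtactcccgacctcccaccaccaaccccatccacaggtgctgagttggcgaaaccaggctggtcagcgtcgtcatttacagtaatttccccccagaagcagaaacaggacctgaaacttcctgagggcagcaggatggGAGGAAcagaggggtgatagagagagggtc
Ctss held a GAGGAA that begins 164 bases before the start and an interferon-type match, GAAACCGAAA, that begins 21 bases before it. Cd68 held a GAGGAA at 225 bases and TGAGTCA at 149 and at 24 bases. C1qb held a GAGGAA at 30 bases, and no match was found in the window of Cd163. The matches are descriptions of sequence, and binding was not measured. The RefSeq table also held Ccr2, Cx3cr1 and C1qc, but not Vcam1, Adgre1 and C1qa.

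Ctss (ENSMUSG00000038642, chromosome 3, 95526786 to 95556403, plus strand) had 34.8, 31.5 and 32.6 CPM in the WT libraries and 39.2, 38.1 and 33.3 CPM in BrmKO. The groups overlapped, with BrmKO replicate 3 below WT replicate 1. Its log2 fold change was 0.16 ± 0.11 (SE, adjusted p = 0.99), and the 95% interval allowed a BrmKO level of 0.943 to 1.33 times that of WT. Cd74, which encodes the invariant chain that cathepsin S cuts, stood at 65.5, 103 and 194 CPM in WT and at 195, 327 and 304 CPM in BrmKO. It did not pass either (log2 fold change 1.19 ± 0.43, adjusted p = 0.795).

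Cd68 (ENSMUSG00000018774, chromosome 11, 69664213 to 69666153, minus strand) had 28.0, 24.3 and 21 CPM in WT and 25.5, 26.2 and 25.4 CPM in BrmKO. The BrmKO values lay inside the WT range. The interval of the ratio was 0.855 to 1.30 (log2 fold change 0.07 ± 0.13, adjusted p = 0.999). Cd163 (ENSMUSG00000008845, chromosome 6, 124304656 to 124330527, plus strand) had 1236, 1224 and 1153 reads in WT and 1151, 1336 and 1318 in BrmKO. As CPM these were 34.1, 37.7 and 40.5 against 38.5, 46.5 and 38.3, with overlap between the groups. The interval of the ratio was 0.911 to 1.32 (0.14 ± 0.12, adjusted p = 0.999). A change of more than 1.33-fold in either direction thus lay outside all 3 intervals, which are not adjusted for the number of genes.

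Cd163 was high beside Adgre1 and the C1q chains. Its lowest library, at 6.25 CPM per kb, lay above the highest library of C1qb (2.14 CPM per kb), Adgre1 (1.67), C1qc (1.03) and C1qa (0.811). The 20 listed resident macrophage genes spanned a wide range. Lyve1 had 0 reads in all libraries, Marco and Folr2 had 4 reads each over the WT libraries and 0 in BrmKO, and Vsig4 had 0 in WT and 6 in BrmKO. Others had more reads, with WT means of 396 CPM for Apoe, 16.6 for Slc40a1 and 10.3 for Axl. Hmox1 had a WT mean of 15.9 CPM (8.93 to 26.3) and Mrc1 of 5.0 CPM (0.703 to 12.2), both highest in WT replicate 1. Per kilobase Apoe averaged 168 CPM per kb and Hmox1 6.68 over the libraries, against 7.19 for Cd163. These 9 genes were chosen after their values were seen. Whether the Cd163 reads come from the progenitors or from other cells was not tested.

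Ccr2 and Cx3cr1 are the chemokine receptors by which mouse blood monocytes are commonly split, with high Ccr2 on the classical kind and high Cx3cr1 on the non-classical kind. Ccr2 (ENSMUSG00000049103, chromosome 9, 124101950 to 124113557, plus strand) had 1249, 864 and 838 reads in WT and 513, 663 and 631 in BrmKO, that is 34.5, 26.6 and 29.5 CPM against 17.2, 23.1 and 18.3 CPM. Every BrmKO library lay below every WT library. The means were 30.2 ± 4.0 and 19.5 ± 3.15 CPM (SD, n = 3), so that BrmKO held 64.7% of the WT level. The log2 fold change was -0.63 ± 0.16, the smallest p of the 10 genes (unadjusted p = 0.0027), yet it did not pass over all genes in edgeR (adjusted p = 0.328). DESeq2, run as an alternative, did call it (adjusted p = 0.0391, log2 fold change -0.63). Over all 11 alternatives the log2 fold change stayed between -0.77 and -0.52, and the adjusted p lay between 0.0391 and 0.948.

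Cx3cr1 (ENSMUSG00000052336, chromosome 9, 119901616 to 120069879, minus strand) had 17.0, 19.8 and 8.97 CPM in WT and 13.2, 11.6 and 7.62 CPM in BrmKO. The groups overlapped, and replicate 3 was the lowest library of either genotype. Its log2 fold change was -0.50 ± 0.30 (adjusted p = 0.957). Leaving out WT replicate 3 gave -0.77, and leaving out WT replicate 2 gave -0.26. The gene shares 78 exonic bases with the antisense gene Gm33858, which had 111 reads over the 6 libraries, and in counts without strand information reads there cannot be assigned to either.

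Their ligands gave few reads. Ccl2, which CCR2 binds, ranged from 1.89 to 5.57 CPM, and Cx3cl1, which CX3CR1 binds, from 2.74 to 4.92 CPM, with overlap between genotypes in both. Of 17 tested genes among 20 other chemokine receptors, 11 lay below 0 with a median of -0.12, and 0 passed in edgeR, DESeq2 or limma-voom (2 had an unadjusted p under 0.05 in edgeR, both higher, against 5.85% of all tested genes in either direction). Cxcr6 and Cxcr3 were those 2, with log2 fold changes of 1.09 ± 0.45 and 1.26 ± 0.53. The next by p was Xcr1, a receptor of cross-presenting dendritic cells, at 0.91 ± 0.42. Ccr2 thus had a log2 fold change below 0 while the receptors with the smallest p in its family had values above 0.

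Vcam1, the ligand of the integrin VLA-4 that holds blood progenitors in the marrow, had the widest range of the 10 genes. It (ENSMUSG00000027962, chromosome 3, 116109949 to 116129688, minus strand) had 1381, 375 and 231 reads in WT and 59, 35 and 268 in BrmKO, that is 38.1, 11.5 and 8.12 CPM against 1.97, 1.22 and 7.79 CPM. The groups did not overlap, but BrmKO replicate 3 lay just under WT replicate 3, and WT replicate 1 stood far above the rest. The means were 19.3 ± 16.4 and 3.66 ± 3.60 CPM (SD, n = 3). The log2 fold change of -2.38 ± 0.92 did not pass (edgeR adjusted p = 0.827). Leaving out WT replicate 1 gave -1.42 and leaving out BrmKO replicate 3 gave -3.59 (adjusted p = 0.999 and 0.419). The integrin subunits that bind VCAM1, Itga4 and Itgb1, ranged from 91.2 to 146 CPM and from 306 to 341 CPM and overlapped between genotypes.

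Many markers of stroma and endothelium shared their highest or lowest library with Vcam1. Of 19 tested genes of these 2 lists, 10 were highest in WT replicate 1 (52.6%, against 14.9% of all tested genes) and 7 were lowest in BrmKO replicate 2 (36.8%, against 15.6%). Vcam1 was also highest and lowest in these libraries. Lepr, the leptin receptor that marks marrow mesenchymal cells, had 11, 3.23 and 1.44 CPM in WT and 0.836, 0 and 0.523 CPM in BrmKO. Stab1, a scavenger receptor of sinusoidal endothelium and some macrophages, had 14.4, 3.35 and 4.08 CPM in WT and 2.07, 1.32 and 1.08 CPM in BrmKO. Kdr, the VEGF receptor of endothelium, had 27.3, 13.8 and 9.49 CPM in WT and 4.58, 6.52 and 7.71 CPM in BrmKO. Pdgfra had 67 reads over the WT libraries and 0 in BrmKO. Not all followed: 6 of 9 tested stromal and 8 of 10 tested endothelial genes lay below 0. The collagen genes Col1a1 and Col1a2 and the matrix gene Dcn lay above 0 (log2 fold changes 1.41 ± 1.68, 0.68 ± 1.30 and 1.05 ± 0.90), each highest in BrmKO replicate 3, where Col1a1 had 58.0 CPM against 26.1 in WT replicate 1. The other 2 above 0 were Egfl7 and Esam, at 0.23 ± 0.11 and 0.17 ± 0.16. Summed over 10 genes, the stromal list ranged from 187 to 331 CPM in WT and from 173 to 269 CPM in BrmKO, and the endothelial list from 240 to 343 and from 217 to 257 CPM. Pdgfrb alone, named after its values were seen, gave 136 to 167 CPM of the stromal sum and overlapped between genotypes. Tie1, so named too, gave 70.1 to 113 CPM of the endothelial sum, Egfl7 50.2 to 71.7 and Esam 36.6 to 59 CPM, each with overlap. The sums thus weigh these genes more than Lepr, Stab1 or Kdr. None of the 19 genes passed in edgeR (8 had an unadjusted p under 0.05, all lower, against 2.71% of all tested genes in that direction). DESeq2 called 1 stromal gene, Pdgfra, and 3 endothelial genes, Kdr, Plvap and Stab1, all lower in BrmKO, and limma-voom called Pdgfra. The median log2 fold change was -2.21 for the stromal and -1.30 for the endothelial list, and -0.63 and -0.50 without WT replicate 1. The low-count filter was run again there and left 8 stromal and 10 endothelial genes, so the stromal medians are not over the same genes. Resident macrophage genes shared these libraries in part, with 5 of 11 tested highest in WT replicate 1 (45.5%), Mrc1 and Hmox1 among them, and 3 lowest in BrmKO replicate 2 (27.3%). The part of any of these cells in the Vcam1 values was not tested.

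**Figure D3:**
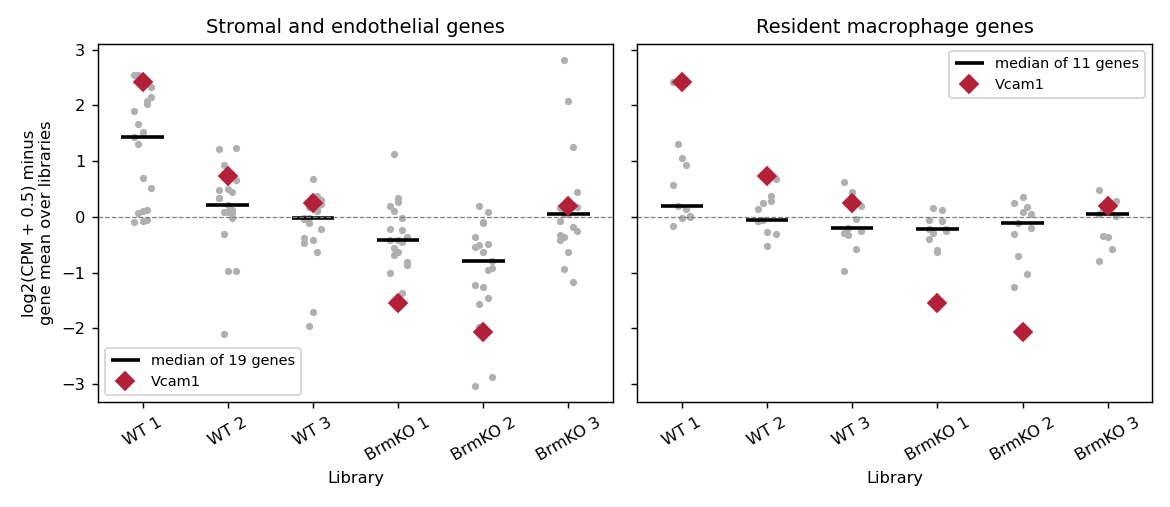
Vcam1 (red diamonds) in each library beside tested stromal and endothelial genes (left) and tested resident macrophage genes (right), as log2(CPM + 0.5) minus the mean of each gene over the 6 libraries, with grey points for genes and black bars for their medians. The stromal and endothelial median is 1.44 in WT replicate 1 and -0.79 in BrmKO replicate 2, and that of the macrophage genes, of which 5 of 11 are highest in WT replicate 1, lies between -0.22 and 0.20.

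Adgre1, which encodes F4/80, the classical surface marker of mouse macrophages, was near the lower end. Adgre1 (ENSMUSG00000004730, chromosome 17, 57358691 to 57483527, plus strand) had 51, 176 and 69 reads in WT and 46, 44 and 105 in BrmKO, that is 1.41, 5.42 and 2.43 CPM against 1.54, 1.53 and 3.05 CPM. WT replicate 2 was the highest library and WT replicate 1 the lowest, and all BrmKO values lay inside the WT range. The log2 fold change was -0.59 ± 0.51 (edgeR adjusted p = 0.999) and turned to 0.10 without WT replicate 2. Adgre1 was thus highest in a library other than that in which Vcam1 was highest, although both are known from marrow macrophages.

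C1qa, C1qb and C1qc encode the 3 chains of the complement recognition molecule C1q, which macrophages are known to make in quantity. They lie side by side on the minus strand of chromosome 4, C1qb from 136880129 to 136886187, C1qc from 136889804 to 136893065 and C1qa from 136895917 to 136898803. Together they had 175, 104 and 93 reads in WT and 103, 53 and 157 in BrmKO, or 4.83, 3.20 and 3.27 CPM against 3.44, 1.85 and 4.57 CPM. WT replicate 1 was highest, BrmKO replicate 3 next and BrmKO replicate 2 lowest, and the groups overlapped.

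The 3 chains did not vary alike. C1qa (ENSMUSG00000036887) had 26, 14 and 24 reads in WT and 17, 11 and 19 in BrmKO. C1qb (ENSMUSG00000036905) had 77, 60 and 24 reads in WT and 63, 33 and 80 in BrmKO, and was lowest in WT replicate 3, where C1qa was highest by CPM. C1qc (ENSMUSG00000036896) had 72, 30 and 45 reads in WT and 23, 9 and 58 in BrmKO. Counts this small leave wide intervals. The log2 fold changes were -0.40 ± 0.51, 0.21 ± 0.44 and -0.69 ± 0.59 for C1qa, C1qb and C1qc (edgeR adjusted p = 0.999 for each). The interval of the C1qc ratio ran from 0.247 to 1.56, so it held both a large decrease and a moderate increase. That of C1qc was -0.28 without BrmKO replicate 2 and -1.46 without BrmKO replicate 3, and that of C1qb turned to -0.09 without WT replicate 3. Of the enzymes that join C1q, C1ra ranged from 11.3 to 14.1 CPM, and C1s1 had at most 0.608 CPM and was not tested. Serping1, the inhibitor of these enzymes, had 9.11, 5.05 and 2.32 CPM in WT and 1.67, 0.0348 and 1.74 CPM in BrmKO, apart but not passing (-2.24 ± 0.90, adjusted p = 0.802).

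Other genes of the monocyte lineage were read from a list of 20. Of 18 tested, 15 lay below 0 with a median of -0.31, against 51.2% of all genes and a median of -0.01, and 0 passed in edgeR (6 had an unadjusted p under 0.05, 4 lower and 2 higher, against 5.85% of all tested genes). With any library left out, 13 to 15 lay below 0, of 17 or 18 tested. Ms4a6c, a membrane protein gene high in monocytes, had 42.3, 37.0 and 44.4 CPM in WT and 24.8, 29.5 and 33.8 CPM in BrmKO, apart between genotypes (log2 fold change -0.49 ± 0.14, adjusted p = 0.482). Klf4, a transcription factor that monocytes need and that is also induced early in stressed cells, had 10.5, 17.5 and 9.11 CPM in WT and 38.9, 40.0 and 21 CPM in BrmKO (1.43 ± 0.30, adjusted p = 0.194), and it was the 1 gene of this list that DESeq2 called (adjusted p = 6.55e-05), while limma-voom called 0. Of 10 immediate early genes, 8 lay above 0 (median 0.17), with 0 past the threshold with any of the 3 tools and 3 at an unadjusted p under 0.05 in edgeR (5.85% of all tested genes), and the part of these 10 genes in the Klf4 values was not tested. Treml4, known from non-classical monocytes, had 0.331, 1.29 and 1.13 CPM in WT and 1.77, 2.89 and 3.29 CPM in BrmKO (1.54 ± 0.51, adjusted p = 0.66).

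Csf1r, the receptor of the macrophage growth factor, and Ly6c2 were picked out after their values were seen. Csf1r had 144, 145 and 109 CPM in WT and 116, 118 and 82.4 CPM in BrmKO, with overlap. Ly6c2, which marks classical monocytes and their progenitors, had 83.4 to 118 CPM with overlap. Per kilobase, Csf1r and Ly6c2 stood at 20.6 and 37.0 CPM per kb, against 3.68 for Ccr2.

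Resident macrophage genes gave a mixed picture. Of 20 listed, 11 were tested and 8 lay below 0 with a median of -0.36. Without WT replicate 1 the median was -0.15, over the 12 genes that then passed the low-count filter. None passed in edgeR, DESeq2 or limma-voom (2 had an unadjusted p under 0.05 in edgeR, against 5.85% of all tested genes). Hmox1, haem oxygenase, had 26.3, 12.4 and 8.93 CPM in WT and 8.32, 6.13 and 8.0 CPM in BrmKO, apart but not passing (-1.09 ± 0.36, adjusted p = 0.644), and -0.51 without WT replicate 1. Mrc1, the mannose receptor, had 12.2, 2.12 and 0.703 CPM in WT and 1.30, 0.488 and 1.95 CPM in BrmKO, and its log2 fold change was -2.00 ± 0.99 with all libraries and -0.18 without WT replicate 1. Trem2 had a log2 fold change of -1.14 ± 0.49 (adjusted p = 0.828). Spic, the factor of iron-recycling red pulp and marrow macrophages, chosen after its values were seen, had 2.85 to 3.42 CPM in WT and 3.01 to 5.23 CPM in BrmKO.

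Siglec1, the macrophage sialic acid receptor CD169, went the other way and was not among the tested genes. It had 0 reads in all WT libraries and 37 over the BrmKO libraries, at 0.435, 0.279 and 0.465 CPM. With 3 reads over the WT group as the floor, the observed BrmKO level was 12.9-fold higher. Sampling error of the 37 reads and spread between animals are not in this ratio. Siglec1 was named after its values were seen, and the ratio has no test.

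The median of lysosomal genes, to which Ctss and Cd68 are related by function, lay near that of all genes. Of 19 tested, 6 lay below 0 and 13 above, with a median of 0.06, and 0 passed in edgeR, DESeq2 or limma-voom (2 had an unadjusted p under 0.05 in edgeR, against 5.85% of all tested genes). Cd63, a tetraspanin of late endosomes, had a log2 fold change of -0.29 ± 0.08, and Psap, the precursor of the saposins, 0.24 ± 0.09 (adjusted p = 0.504 and 0.716). Gpnmb, chosen after its values were seen, stood far from the median at 2.09 ± 1.13 (adjusted p = 0.925), with 9 reads over the WT libraries and 40 over BrmKO. Of 16 tested ligands, receptors and partners of the 10 genes, 11 lay below 0 with a median of -0.09, and 0 passed with any of the 3 tools (2 had an unadjusted p under 0.05 in edgeR, Cd74 and Serping1, against 5.85% of all tested genes). Ccl7, a second CCR2 ligand, followed with -1.49 ± 0.67 at 0.204 to 1.32 CPM.

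**Figure D4:**
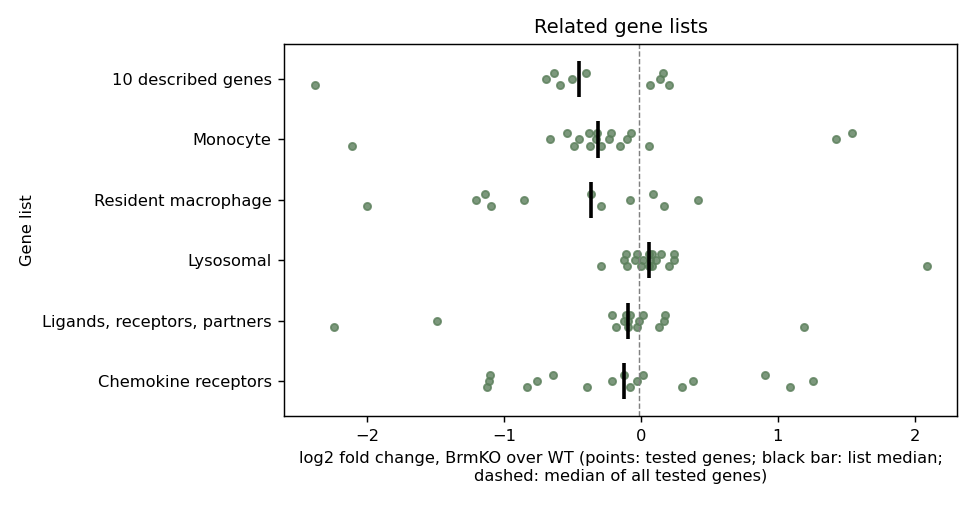
Log2 fold change of BrmKO over WT for each tested gene (points) of the 10 genes and of 5 related lists, with the list median (black bars) and the median of all tested genes (dashed line). The monocyte median is -0.31 with 15 of 18 genes below 0, and the lysosomal median is 0.06.

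Markers of other blood cells were set beside these values. The summed level of 10 neutrophil genes ranged from 14.8 to 38.0 CPM and was highest in both libraries numbered 3 (38.0 and 28.8 CPM), the libraries in which Cx3cr1 was lowest. The sum of 6 primary granule genes of myeloid progenitors, Mpo among them, ranged from 4690 to 5380 CPM in WT and from 4680 to 5840 CPM in BrmKO, with a median log2 fold change of 0.02. The sum of 10 dendritic cell and MHC class II genes ranged from 196 to 580 CPM in WT and from 569 to 903 CPM in BrmKO, with 4 of 9 tested genes at an unadjusted p under 0.05 in edgeR, all higher, against 5.85% of all tested genes in either direction. The median log2 fold change of this list was 1.12, and 0 passed in edgeR with all libraries. Without WT replicate 3 the median was 1.71 and 3 of 9 tested genes passed. B lineage genes summed to 700 to 1370 CPM in WT and 623 to 701 CPM in BrmKO, T and NK genes to 233 to 267 and 238 to 245 CPM, erythroid genes to 516 to 861 and 470 to 783 CPM, and mast cell and basophil genes to 497 to 700 and 435 to 621 CPM. Most of each sum came from 1 gene. Named after their values were seen, these were Ighm (556 to 1290 CPM), Nkg7 (225 to 258), Car1 (346 to 636) and Gata2 (245 to 470). In edgeR, an unadjusted p under 0.05 was found for 2 B lineage genes (lower), 1 T and NK gene (higher) and 0 erythroid genes. The mast cell list had 4 (3 lower, 1 higher), against 5.85% of all tested genes. DESeq2 called 1 mast cell or basophil gene, lower in BrmKO, and none of the other genes summed here. Platelet and megakaryocyte genes, like Ccr2 and 15 of 18 monocyte genes, had log2 fold changes below 0. They summed to 727 to 1010 CPM in WT and 478 to 693 CPM in BrmKO, and all 9 tested lay below 0, with a median of -0.71. Pf4, a platelet chemokine, passed in edgeR (-0.60 ± 0.09, adjusted p = 0.0391) and in limma-voom, and DESeq2 called Pf4, Treml1, Selp and Itgb3, all lower. With any 1 library left out, Pf4 stood at -0.65 to -0.55 and did not pass in edgeR (adjusted p = 0.0564 to 0.291). Of the defining markers, Cd3e had 0 reads in every library and Ly6g, the neutrophil surface marker, at most 0.116 CPM. Other genes of these 2 lists had reads: over the 6 libraries Cd3d had 96, Trbc2 317, Cd4 856 and Cd8a 167, and S100a9 had 667, Ngp 609 and S100a8 522. The B lineage list was, like Vcam1, highest in WT replicate 1, with 7 of its 8 tested genes at their maximum there. The part of any of these cells in the levels of the 10 genes was not tested.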

How the data were processed

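RNA was sequenced from LSK cells of 3 WT and 3 BrmKO mice, from polyadenylated RNA with a SMART-Seq v4 kit per the labels' protocols, which amplifies cDNA without molecular identifiers or strand marks. The authors deposited whole-number read counts per Ensembl gene, with a file for each library. The tools bcl2fastq, FastQC, STAR, HTSeq and DESeq2 and the build GRCm38 are named per the submitters' processing notes. The sources used here give no versions and no annotation release. The 5 rows that name no gene, among them reads outside genes (5.79% to 9.29%) and ambiguous reads (6.23% to 6.47%), stayed out of library sizes and tests.

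Symbols, positions and exon lengths came from GENCODE M21 (GRCm38), matched on the Ensembl identifier for 55227 of 55487 genes. BrmKO was compared with WT by edgeR 4.0.16 (R 4.3.3) with its robust quasi-likelihood test, TMM factors and filterByExpr, over 15691 genes and with no covariate. Adjusted p is Benjamini-Hochberg over those genes, at 0.05. Levels are CPM, computed with TMM-scaled library sizes. Errors of log2 fold changes are SE, and 95% intervals come from the same fit. Intervals and the floor of 3 reads do not cover amplification. The fit was tried on simulated counts first.

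The genes and lists were chosen with earlier results of these data known. From related lists, up to 3 genes with the smallest p were named, and from marker lists up to 2; 1 gene so chosen is not reported here. Most other genes are said to be chosen after their values were seen. Exceptions are markers that stand for the sorted cells, for a ligand or partner of the 10 genes, or for a cell type at 0 or near it. Genes named for lying above 0, for having reads or for a DESeq2 call were also chosen after their values were seen, without being so marked. A search with minimap2 2.31 found 0 other genes matching a member's longest transcript at 95% identity over 50% of its length. Alternatives were DESeq2 1.42.0, limma-voom (limma 3.58.1), DESeq2's size factors in edgeR, no low-count filter, a replicate block and each library left out. All pairs of libraries differed by more than sampling noise, with a chi-square of 13.16 to 47.75 per degree of freedom. WT replicate 3 was closer to BrmKO replicate 3 (18.69) than to WT replicates 1 and 2 (40.19 and 43.83). BrmKO replicate 3 stood at 32.02 and 28.92 from BrmKO replicates 1 and 2. Mitochondrial reads were 0.704% of gene reads in both libraries numbered 3 and 0.392% to 0.477% in the others. The cause was not tested.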

Additional observations from a re-analysis of the deposited data

How the results depend on the processing

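Over the 10 genes and 11 alternatives, 106 of 110 log2 fold changes kept their direction and their side of the threshold. The exceptions were Ccr2, which passed with DESeq2 (-0.63, adjusted p = 0.0391), and 3 genes that changed direction with a library left out: Adgre1 without WT replicate 2 (0.10), and Cd68 and C1qb without WT replicate 3 (-0.03 and -0.09). With 1 library left out, log2 fold changes ranged from -0.77 to -0.52 for Ccr2, -0.77 to -0.26 for Cx3cr1, -3.59 to -1.42 for Vcam1, 0.04 to 0.19 for Cd163, -1.0 to 0.10 for Adgre1, -0.03 to 0.18 for Cd68, 0.12 to 0.23 for Ctss, -0.63 to -0.20 for C1qa, -0.09 to 0.46 for C1qb and -1.46 to -0.28 for C1qc. The number of all genes that passed, 22, was 58 with no low-count filter, 141 with DESeq2 and 6 to 36 with 1 library left out. The WT libraries left out in order of number gave 7, 6 and 36 genes, and BrmKO replicate 1 left out gave 9. The cause was not tested. Replicate numbers are not stated to pair the mice, and deviations of same-numbered libraries correlated at 0.05, 0.01 and 0.19, with WT replicate 2 closer to BrmKO replicate 1 (0.17). With the replicate block 25 genes passed, none of the 10 among them (Ccr2 -0.63, adjusted p = 0.258; Cx3cr1 -0.46, adjusted p = 0.449; Vcam1 -2.50, adjusted p = 0.655). Depth limits the C1q genes, with 111 to 337 reads each over 6 libraries.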
